A study of Mus musculus and Homo sapiens with 6 samples.

Results

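The genes of 10 ETS transcription factors, Ets1, Ets2, Elk3, Etv4, Etv5, Etv6, Fli1, Erg, Elf1 and Spdef, were examined in the peak lists of 4 ATAC-seq libraries from NMuMG cells, an epithelial line from mouse mammary gland. The members were taken by name from the 21900 protein-coding genes of the gene table, and every peak inside a member or within 50 kb of it was counted (mm10). Libraries were made from 25000, 50000, 75000 and 100000 cells of the same line, with no treatment given in the labels beyond growth in serum-containing medium, and with passage numbers under 10. In this assay the Tn5 transposase inserts adapters into accessible DNA, so that a peak marks a stretch of open chromatin and not the expression of a gene. There was 1 library at each cell number, and no value has a replicate error. The differences between libraries are therefore given without a test.

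ETS factors share a winged helix-turn-helix DNA-binding domain that recognises sites built around a GGAA core, and members of the family differ in the flanking bases they prefer, in their partners and in the cells that make them. Several of them are end points of RAS and ERK signalling: Ets1 and Ets2 are phosphorylated by ERK, Elk3 is a ternary complex factor that binds DNA together with the serum response factor, and Etv4 and Etv5 belong to the PEA3 subgroup, which acts downstream of fibroblast growth factor receptors in branching epithelia including the mammary gland. Etv6 is a repressor with an oligomerising pointed domain, and Elf1 belongs to a subgroup first studied in lymphoid cells. Fli1 and Erg are closely related factors of endothelial and blood cells, and Spdef is a factor of secretory epithelia.

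Open regions were unevenly spread over the family. Ets1, Ets2 and Elk3 had many, Etv5 had few but carried the highest-scoring one at its start, and Fli1 and Erg had none inside the gene in any library. The lists held 38878, 43832, 41509 and 45530 peaks in order of rising cell number, the order used for all sets of 4 values here, and 55, 65, 63 and 73 of them, or 0.141%, 0.148%, 0.152% and 0.160%, lay at the members. Each peak has a whole-number score given by the authors' caller, which ranks peaks within a list and has a lowest value of 8; scores are quoted here to describe peaks and not as levels to be compared between libraries. The median score of the members' peaks was 15, 17, 16 and 15, beside 15, 16, 15 and 16 for the whole lists. At or above the median of their own list lay 50.9%, 58.5%, 57.1% and 49.3% of the members' peaks, beside 51.2%, 51.2%, 53.2% and 51.7% of all peaks. The members' peaks were thus spread over the score range much as all peaks are.

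Peaks that overlapped by at least 1 bp within or between libraries were joined into regions. At the members there were 79 regions out of 55702, 46 of them reaching into a member and 33 outside but within 50 kb. A peak was present in all 4 libraries in 39 of the 79 regions (49.4%, exact Clopper-Pearson 95% interval 37.9 to 60.9), beside 46.3% of all regions. In 1 library only were 18 (22.8%, 14.1 to 33.6), beside 26.2% of all regions. Both shares lay near those of all regions, and the intervals here cover counting error only. Regions of a single library at the members had a median score of 9 and a highest score of 16. Of those 18, 9 were found at 100000 cells, 5 at 50000, 3 at 75000 and 1 at 25000. These are 11.4%, 6.33%, 3.8% and 1.27% of the members' regions, beside 8.48%, 7.44%, 5.77% and 4.53% of all regions, which follow the same order. Found at 50000 and 100000 cells but at neither 25000 nor 75000 were 6 regions (7.59%, beside 3.79% of all regions).

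**Figure D1:**
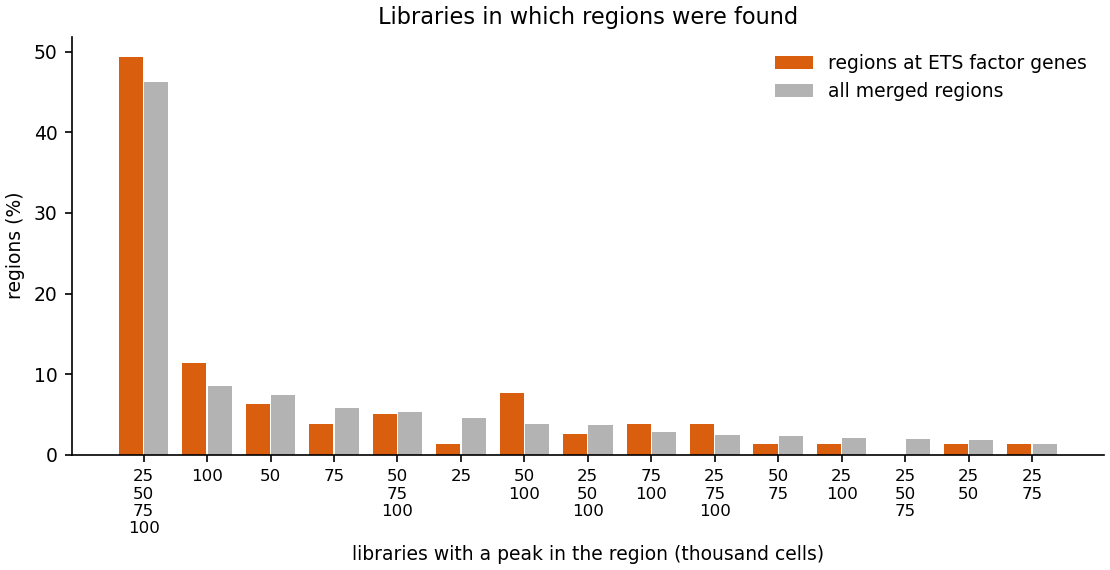
Share of regions (%) for each combination of libraries that had a peak in the region, given as cell number divided by 1000; orange bars are the 79 regions at the ETS factor genes and grey bars all 55702 regions. The combination of all 4 libraries takes 49.4% of the members' regions and 46.3% of all regions.

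Among the members, 9 of 10 had a region found in all 4 libraries inside the gene or within 50 kb, against 74.7% of protein-coding genes. Counting only regions that reached into the gene, 7 of 10 members had one, against 52.2% of protein-coding genes. The members without such a region in the gene were Fli1, Erg and Spdef. When a region was counted only for its nearest protein-coding gene, 7 members kept one in the wider window, against 57.2% of protein-coding genes; those lost were Fli1, whose region lies nearer to Ets1, and Spdef, whose regions lie inside Ilrun. Numbers of regions in the windows had a median of 6 over the members and 5 over protein-coding genes. Long genes have wider windows, and per 100 kb of window the medians were 3.36 and 3.51.

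**Figure D2:**
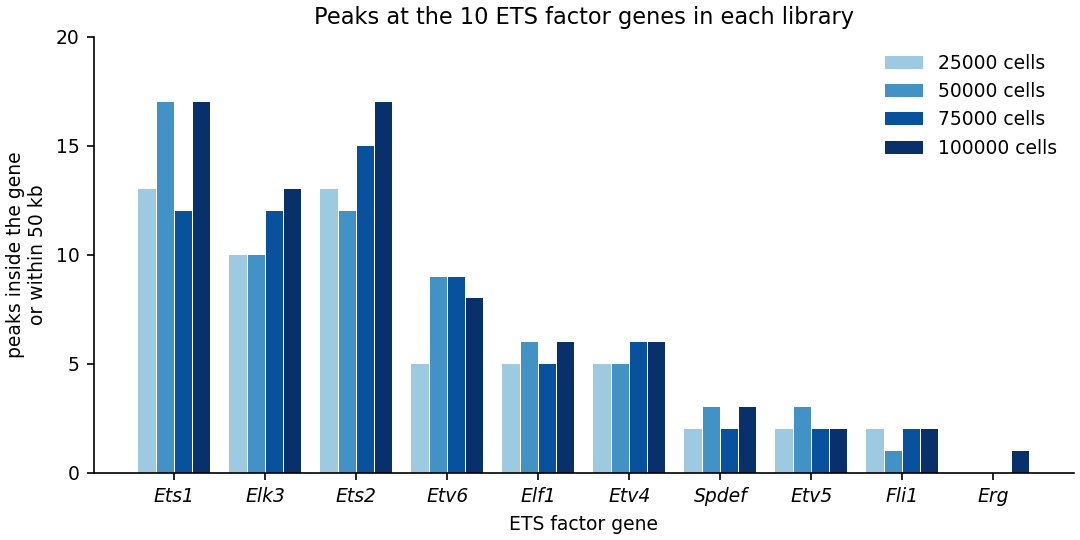
Peaks inside each ETS factor gene or within 50 kb of it, as deposited, in the libraries from 25000 to 100000 cells (1 library per cell number, no error bars). Ets1, Elk3 and Ets2 had 10 to 17 peaks in every library, and Erg had 1 peak at 100000 cells only.

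Ets1 and Ets2 had dense sets of regions. The window of Ets1 held 13, 17, 12 and 17 peaks, joined into 18 regions, of which 9 were found in all 4 libraries. That is 8.12 regions per 100 kb, at the 84.5 percentile of protein-coding genes by density. The highest-scoring region lay inside the gene at chr9:32695401-32696350, with scores of 61, 52, 46 and 68 and at or above the 90.1 percentile of its list each time. Neither annotated end of Ets1 had a peak within 1 kb in any library. The promoter table held no start of Ets1, so whether a region lies at a start inside the gene was not examined. Another region inside the gene, at chr9:32741551-32742200, scored 20, 28, 21 and 21. All 4 regions that Ets1 had in 2 libraries lay inside the gene, and 3 of them were found at 50000 and 100000 cells and missed at 25000 and 75000. Over the whole lists, 2110 of the 7892 regions found in 2 libraries had that combination, more than any other. The region of a single library with the highest score, at chr9:32793301-32793750, scored 10 at 100000 cells.

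Ets2 is a short gene of 18.6 kb whose window held 13, 12, 15 and 17 peaks in 15 regions, 9 of them found in all 4 libraries. At 12.6 regions per 100 kb it had the highest density of the members, at the 96.1 percentile of protein-coding genes. A region over its start, at chr16:95701701-95702800, scored 34, 55, 26 and 43. A higher-scoring region lay 19.5 kb below the gene at chr16:95682101-95682900, inside the non-coding gene Gm31901, with scores of 44, 77, 57 and 70. Inside Ets2, the region at chr16:95708401-95709150 scored 29, 44, 40 and 50 and lay 5.99 kb from the start. The highest score of a single-library region was 11, at chr16:95704101-95704950 in the gene at 100000 cells.

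Elk3, whose product binds with the serum response factor and can repress transcription, had many regions but little at its start. Its window held 10, 10, 12 and 13 peaks in 15 regions, 7 of them found in all 4 libraries, at the 88.6 percentile by density. Near the start there was no peak at 25000 and 50000 cells, a peak of score 8 at 75000 cells at chr10:93310301-93310600, and a peak of score 11 at 100000 cells at chr10:93310701-93311250, which alone covered the start. These peaks did not overlap each other. By mean percentile, the first region found in all 4 libraries lay 32.1 kb above the gene at chr10:93343301-93344000, in the non-coding gene Gm17745, with scores of 17, 22, 29 and 57, but it was not the highest at 25000 and 50000 cells. Next came a region inside Elk3 at chr10:93287401-93288150, with 22, 24, 26 and 24, which also overlaps the non-coding gene Gm32551. A region at chr10:93212551-93213150, with 15, 32, 22 and 27, lay inside the neighbouring kinase gene Cdk17.

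The PEA3 genes Etv4 and Etv5 each had a high-ranking gene-end peak. Etv5 carried the highest-scoring peak of any member in every library, at chr16:22439301-22440200 over its outer start, with scores of 71, 105, 122 and 123, between the 98.1 and 99.7 percentiles of the lists. Apart from it, the Etv5 window held a region at chr16:22428701-22429350 inside the gene, with 16, 23, 16 and 21, and a peak of 16 at 50000 cells at chr16:22434451-22435000. These 3 regions gave a density of 1.90 per 100 kb, at the 33.3 percentile of protein-coding genes, and each of them reached into the gene. Among the members, Fli1 and Erg alone had fewer regions per 100 kb. Etv4 had 5, 5, 6 and 6 peaks in 6 regions, 4 of them found in all 4 libraries. The one with the highest mean percentile, at chr11:101784501-101785700, covered the upper end of Etv4 and the adjoining end of the non-coding gene Gm39392, and scored 31, 64, 32 and 47. Inside Etv4, the region at chr11:101776751-101777300 scored 17, 18, 11 and 21. The region at chr11:101732451-101733250, with 29, 27, 34 and 40 and thus the highest at 75000 cells, lay at the start of Dhx8, an RNA helicase gene.

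Etv6 and Elf1 had start peaks in all 4 libraries, at lower ranks. At the start of Etv6, a region at chr6:134034701-134036050 scored 22, 50, 35 and 44, and it also covered the start of the protein-coding gene Gm46977 on the opposite strand. Etv6 is the longest member, at 234 kb, and 10 of its 11 regions lay in the gene. Those at chr6:134262901-134263900 (41, 64, 30 and 42) and chr6:134089951-134090750 (28, 35, 53 and 58) had a higher mean percentile than the start, though each scored below it in at least 1 library. Of the 11 regions, 4 were found in all 4 libraries and 5 in a single library, the highest of these at chr6:134001251-134001750 with a score of 10 at 75000 cells. The outer start of Elf1 lay in a region at chr14:79480751-79482150 that also covered the start of Wbp4, a splicing factor gene on the opposite strand, and a transfer RNA gene. It was split into 3, 4, 2 and 1 peaks in the 4 libraries, the highest of which scored 15, 19, 22 and 16. The inner start of Elf1 had no peak at 25000 and 50000 cells and peaks of 17 and 9 at 75000 and 100000 cells, at chr14:79515251-79515850. Its highest peak of a single library, at chr14:79487551-79487900, scored 9 at 100000 cells. The other region found in all 4 libraries near Elf1, at chr14:79587001-79587950 with 18, 29, 28 and 37, lay at the start of Sugt1, a co-chaperone gene.

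Spdef had no peak at its start at 25000, 50000 and 75000 cells and a peak of score 9 at 100000 cells, at chr17:27729851-27730200 and 0.900 kb from the start. No other region lay inside the gene. Both regions of its window found in all 4 libraries, at chr17:27780901-27781550 (45, 37, 30 and 32) and chr17:27777701-27778350 (18, 22, 22 and 28), lay inside Ilrun, 49.9 and 46.7 kb from Spdef. The first of these is the region nearest to the 50 kb limit on its inner side; the nearest beyond the limit, 50.5 kb from Elk3 at chr10:93361701-93362200, had scores of 11, 9 and 8 at 50000, 75000 and 100000 cells.

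Fli1 and Erg each lie next to a member with many regions, Fli1 beside Ets1 on chromosome 9 and Erg beside Ets2 on chromosome 16. Fli1, over 121 kb, and Erg, over 227 kb, contained no region in any library, as did 37.3% of protein-coding genes. That share takes in genes of every length, and short genes offer less sequence in which a region could lie. Per 100 kb of window, Fli1 had 0.904 regions and Erg 0.305, at the 22.9 and 18.1 percentiles of protein-coding genes. Ets1, over 122 kb, contained 13 regions, and Ets2, over 18.6 kb, contained 5. In the 92.8 kb between Fli1 and Ets1 there were 3 regions, all within 50 kb of Ets1. The 2 regions in the Fli1 window were among them and were counted for both genes. One, at chr9:32591501-32592200, was found in all 4 libraries with scores of 37, 37, 28 and 34, and lay 48.1 kb from Fli1 and 44.0 kb from Ets1. The other, at chr9:32589801-32590350, scored 14 at 25000, 10 at 75000 and 13 at 100000 cells. The 116 kb between Erg and Ets2 held 10 regions, of which 9 lay in the part nearer to Ets2 (15.5 per 100 kb) and 1 in the part nearer to Erg (1.73 per 100 kb). That 1 region, at chr16:95605251-95605750 and 18.7 kb above Erg, scored 11 at 100000 cells and was the only one in the Erg window. Among the 9 is the region over the start of Ets2, which reaches into the gene and is also counted among its 5. Genes with at most 1 region in their window made up 24.7% of protein-coding genes, a share not adjusted for window length.

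**Figure D3:**
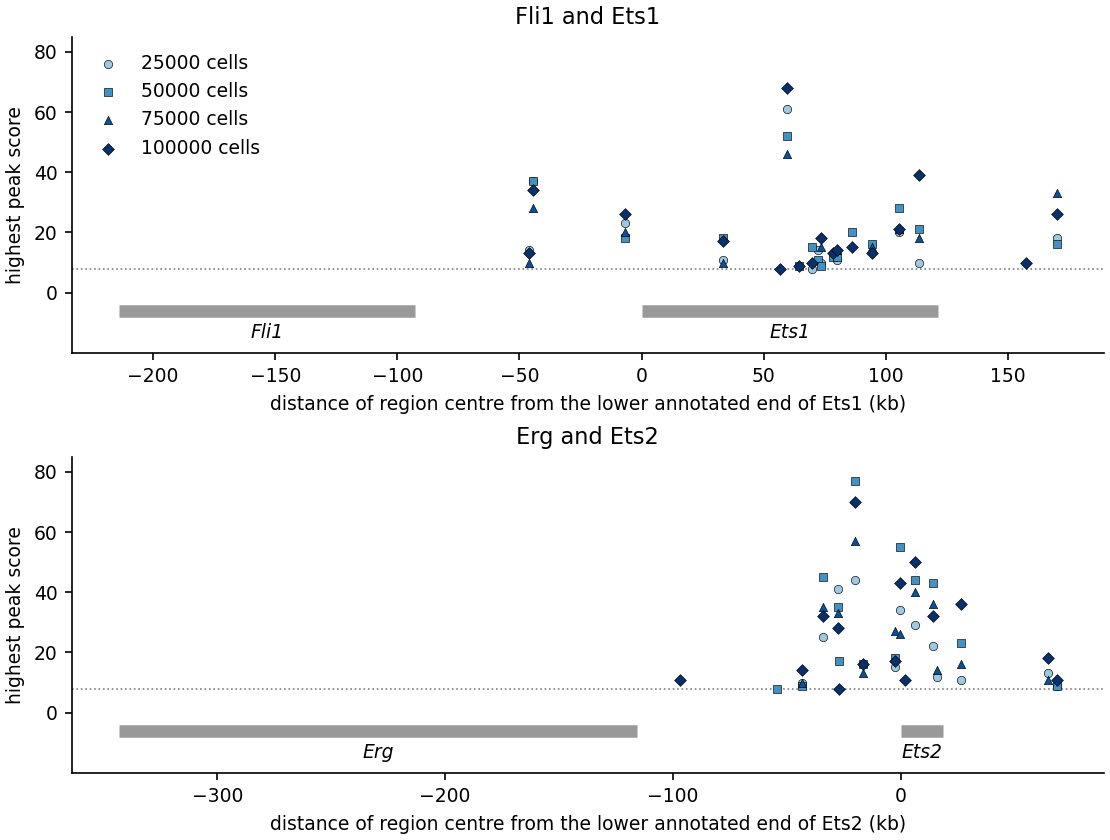
Highest peak score of each region across Fli1 and Ets1 (upper panel) and Erg and Ets2 (lower panel), by distance in kb of the region centre from the lower annotated end of Ets1 or Ets2; markers are the 4 libraries, grey bars the genes, and the dotted line the lowest listed score of 8. No marker lies over Fli1 or Erg, while 13 regions reach into Ets1 and 5 into Ets2.

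**Figure D4:**
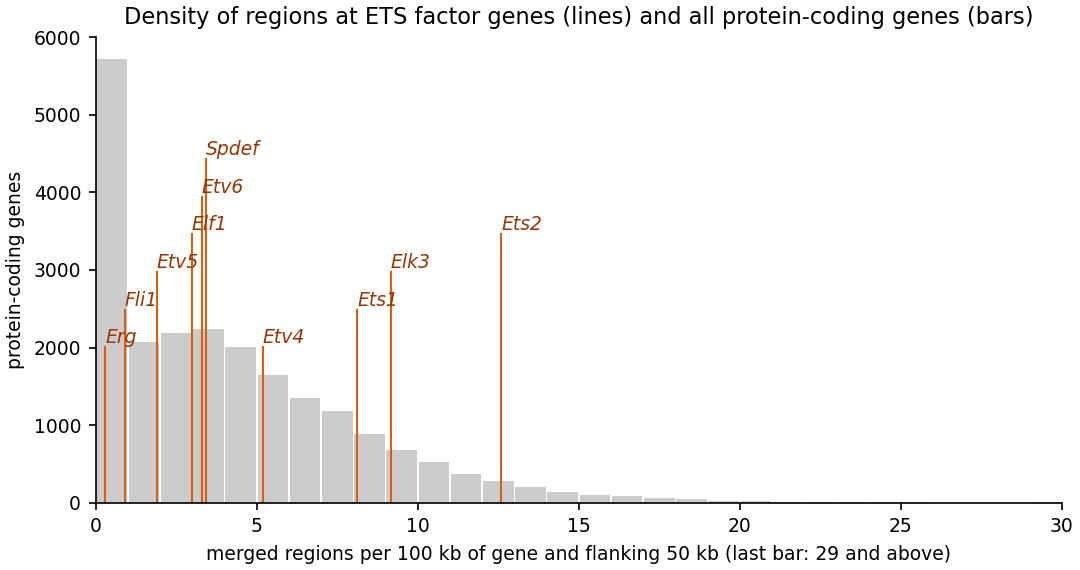
Merged regions per 100 kb of gene and flanking 50 kb, for all 21900 protein-coding genes (grey bars, number of genes) and for each ETS factor gene (orange lines; their height carries no value). Ets2 stands at 12.6 and Erg at 0.305 regions per 100 kb.

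Annotated transcription starts were taken from a RefSeq promoter table (GRCm38.p6, the same assembly as mm10), which matched 7 of the 10 members with 11 starts; Ets1, Fli1 and Etv4 were described by both annotated gene ends. A peak within 1 kb of a start was present in all 4 libraries at 4 of the 7, Ets2, Etv5, Etv6 and Elf1, against 45.9% of the 17492 protein-coding genes in that table. By gene ends, 5 of 10 members had a peak in all 4 libraries, the same 4 and Etv4, against 43.9% of 21900 protein-coding genes. The peaks of Etv6 and Elf1 among these are shared with the starts of Gm46977 and Wbp4. Both shares were near those of other genes, and among the members the start peaks ranged from the highest percentiles of a list to none.

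Promoters of 300 bases, 250 before the start and 50 after it, are shown for a member with the highest-scoring start peak, a member with an intermediate one, and for 2 members whose starts are rich in CpG but had weak peaks or none. They are written 5′ to 3′ on the strand of the gene, with capitals marking the searched motifs found in them. The promoters are those of Etv5 at chr16:22439521-22439820 (minus strand), Ets2 at chr16:95702157-95702456 (plus strand), Elk3 at chr10:93311110-93311409 (minus strand) and the outer start of Erg at chr16:95586544-95586843 (minus strand).
Etv5: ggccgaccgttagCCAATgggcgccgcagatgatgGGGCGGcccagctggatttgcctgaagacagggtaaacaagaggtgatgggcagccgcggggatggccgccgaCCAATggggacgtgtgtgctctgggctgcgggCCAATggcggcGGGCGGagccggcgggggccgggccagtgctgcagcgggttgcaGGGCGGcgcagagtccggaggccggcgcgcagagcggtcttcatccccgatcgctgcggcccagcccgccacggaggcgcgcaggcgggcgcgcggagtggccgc
Ets2: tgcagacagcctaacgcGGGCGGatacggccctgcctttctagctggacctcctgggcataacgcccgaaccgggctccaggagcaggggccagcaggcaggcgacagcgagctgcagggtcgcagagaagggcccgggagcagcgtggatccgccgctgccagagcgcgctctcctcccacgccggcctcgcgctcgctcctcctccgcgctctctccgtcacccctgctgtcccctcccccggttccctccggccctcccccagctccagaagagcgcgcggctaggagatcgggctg
Elk3: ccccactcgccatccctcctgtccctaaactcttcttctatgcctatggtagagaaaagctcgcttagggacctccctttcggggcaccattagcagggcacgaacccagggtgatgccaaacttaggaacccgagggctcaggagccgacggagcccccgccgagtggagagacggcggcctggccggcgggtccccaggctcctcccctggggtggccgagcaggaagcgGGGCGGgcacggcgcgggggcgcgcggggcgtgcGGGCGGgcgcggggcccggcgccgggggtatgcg
Erg: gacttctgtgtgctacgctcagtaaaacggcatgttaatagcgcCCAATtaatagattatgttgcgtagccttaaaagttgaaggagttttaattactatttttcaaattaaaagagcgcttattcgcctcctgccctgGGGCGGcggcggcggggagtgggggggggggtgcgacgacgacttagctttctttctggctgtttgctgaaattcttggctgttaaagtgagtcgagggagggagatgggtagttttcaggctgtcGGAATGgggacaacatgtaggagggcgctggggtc

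The ratio of observed to expected CpG pairs, which is high in the CpG islands at many mammalian promoters, was 0.938 in the Etv5 promoter shown, 0.791 in that of Ets2, 0.816 in that of Elk3 and 0.941 in that of Erg. The Etv5 promoter lay wholly inside a peak in every library, and so did the Ets2 promoter. Of the Elk3 promoter, 141 of 300 bases lay in a peak at 100000 cells and none in the other libraries. The Erg promoter lay in no peak, although its CpG ratio was at the 90.4 percentile of all promoters. Over the whole table, a peak within 1 kb was found in all 4 libraries at 72.3% of the 11765 promoters with a ratio of 0.6 or above and at 12.6% of the 21086 below it. Among the members' starts with a ratio of 0.6 or above, those of Etv5, Ets2, Etv6 (0.693) and the outer start of Elf1 (1.08) had such a peak, and those of Elk3 and the outer start of Erg did not. The starts with lower ratios, Spdef (0.329), the inner start of Elf1 (0.202) and the inner starts of Erg (0.275 and 0.191), had peaks in at most 2 libraries.

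**Figure D5:**
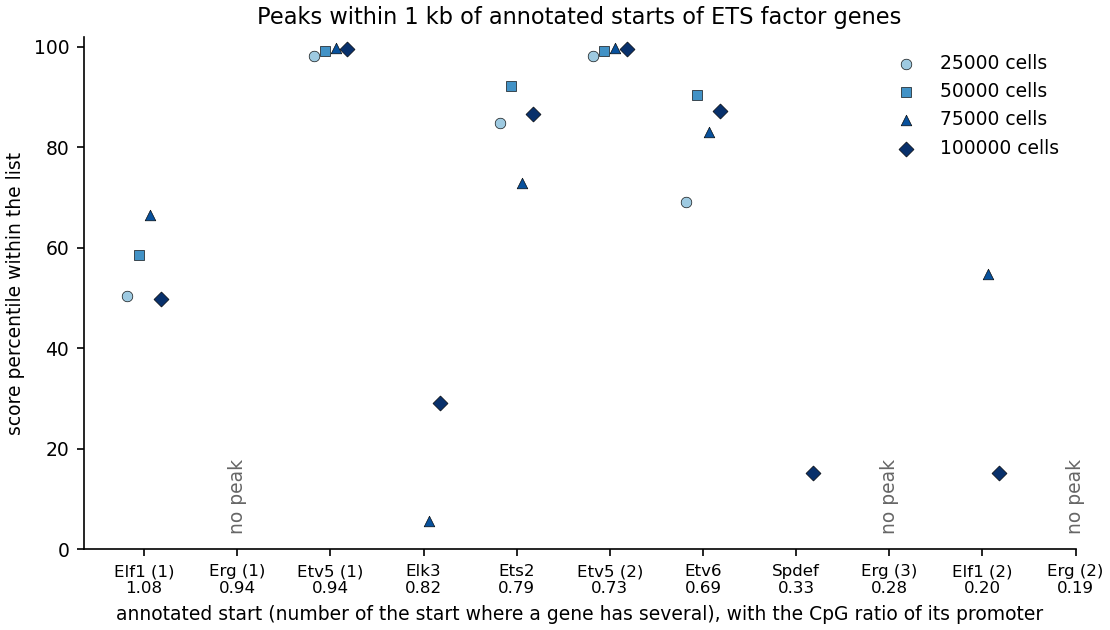
Percentile within its list of the highest-scoring peak within 1 kb of each annotated start, by library, with starts ordered from the highest CpG ratio to the lowest (ratio under the name). Both Etv5 starts share 1 peak within 1 kb, at or above the 98.1 percentile in each library. That peak covers the promoter of the outer start and no base of the promoter of the inner start. The 3 starts of Erg had no peak.

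In the promoters, 15 motifs were searched on both strands; a match says only that the letters are there. The GC box GGGCGG, bound by SP and KLF factors, was present in 6 of the 11 promoters, against 35.7% of the 32851 promoters in the table. It occurred 3 times in the Etv5 promoter shown, starting 215, 99 and 55 bases before the start, beside 3 copies of CCAAT, the site of the NF-Y factor, at 237, 142 and 110 bases. The Ets2 promoter held 1 GC box at 233 bases before the start. The Elk3 promoter held 1 at 18 bases before its start and 1 beyond the start, and the Erg promoter 1 at 111 bases, with a CCAAT at 206 bases. CCAAT was found in 5 of the 11 promoters, against 37.4% of all. The ETS site CCGGAAGT and its shorter form CGGAAG, which the longer one contains, were in none of the 11 promoters, against 3.89% and 16.9% of all promoters. Sites with other bases beside the GGAA core were not searched as ETS sites. The letters AGGAAG stand in the promoters of Elk3, Etv6, Spdef and the inner start of Etv5. On the opposite strand they also stand in that of an inner start of Erg. The absence therefore concerns CCGGAAGT and CGGAAG only. The AP-1 site TGANTCA was found in the promoter of the inner start of Elf1, against 7.81% of all promoters. The letters of the TATA box, TATAAA, occurred in 3 of the 11, against 13.6% of all promoters. In the promoter of the outer Elf1 start they lay on the strand of the gene, from 46 bases before the start. In those of the inner Elf1 start and of an inner start of Erg they lay on the opposite strand. A site of TEAD factors, GGAATG, was found in 3, against 14.7%. The E-box CAGGTG, bound by SNAI and ZEB repressors, was found in 2, against 20.2%. A single promoter held the GATA site AGATAA, against 11.2% of all. The STAT site TTCNNNGAA was found only in the Etv6 promoter among the members, against 8.30% of all. No member's promoter held the cyclic AMP response element TGACGTCA, which 1.79% of all promoters hold, or the E-box of MYC and USF factors, CACGTG, which 7.15% hold. The same was true of the RUNX site TGTGGT, held by 16.8% of all promoters, of the NRF1 site GCGCATGC, held by 2.71%, and of the SMAD site GTCTAGAC, held by 0.213%.

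Other genes of the family were set beside the members from a list of 16. Of the 14 with a start in the table, 8 had a start peak in all 4 libraries, against 45.9% of protein-coding genes, 1 in some and 5 in none. The highest ranks were those of the epithelial factor gene Elf3, with scores of 79, 78, 85 and 84, of Elf2, with 67, 74, 84 and 71, of Gabpa, whose product pairs with GABPB as GA-binding protein, with 47, 68, 52 and 50, and of the ternary complex factor gene Elk4, with 28, 42, 35 and 33. Etv2, a factor of early endothelial progenitors, had start-window peaks of 12, 10 and 9 at 25000, 50000 and 100000 cells and none at 75000. No start peak was found in any library at Etv1, the remaining PEA3 gene, at Fev, a factor of serotonergic neurons, at Elf5, a regulator of alveolar mammary cells, or at Spib, a lymphoid factor. The PEA3 subgroup was therefore mixed, with gene-end peaks in all 4 libraries at Etv4 and Etv5 and no start peak at Etv1. Of 14 genes of RAS and ERK signalling, which acts on several ETS factors, all 14 carried a gene-end peak in every library, against 43.9% of protein-coding genes. All 9 with a start in the table had a peak at that start in every library. The CpG ratios of their promoters were not examined. Of all promoters with a ratio of 0.6 or above, 72.3% had a peak within 1 kb in all 4 libraries.

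The label of the cells was set against markers at the same 1 kb windows. Of epithelial genes with a start in the table, 5 of 10 had a start peak in all 4 libraries, with 0 of 6 endothelial, 0 of 5 blood and 0 of 3 fibroblast genes, and 45.9% of protein-coding genes. By gene ends the counts were 8 of 15 epithelial genes, 0 of 10 endothelial, 1 of 10 blood and 1 of 8 fibroblast genes, beside 43.9% of protein-coding genes. The epithelial counts were thus near those of all genes, and Epcam, Cldn3, Esrp1 and Grhl2 had no gene-end peak in any library. No region reached into the endothelial and blood cell factor genes Fli1 and Erg themselves. By that other measure, 5 of 10 endothelial, 8 of 10 blood, 5 of 8 fibroblast and 4 of 15 epithelial genes had none. The share among protein-coding genes was 37.3%, and none of these counts is adjusted for gene length.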

How the data were processed

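The peak lists of 4 NMuMG ATAC-seq libraries were used, and the MDA-MB-231 samples, which are human, were left out. Tools named in the submitters' processing notes are cutadapt, SAMtools, Bowtie 0.12.8, bedtools 2.17.0 and Picard 1.107. Of the 2 builds named there, mm10 applies to mouse. The deposited lists are named for the peak caller PeaKDEck; its settings, any Tn5 shift of reads, any removal of repeats and whether libraries were down-sampled are not given. The authors deposited 1 list per library with a whole-number score per peak, of unstated basis and with no read counts, so that depth is unknown.

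The members and gene lists were chosen with earlier results of these data known. Peaks joined by an overlap of at least 1 bp form a region, scored in each library by its highest peak. Percentiles are mid-ranks within a list or over genes. Gene positions and promoters are from RefSeq, GRCm38.p6. Named regions are those within 1 kb of a start, up to 3 per gene with the highest mean percentile among those in all 4 libraries, and the highest of a single library; others were added after their values were seen. Python 3.11.15, pandas 2.3.3, numpy 2.4.6 and SciPy 1.17.1 were used, and overlap functions were tested on simulated data. Alternatives were other windows, score and overlap thresholds, merged peaks, nearest genes and leaving out each library. Counting genes by their nearest regions was added after seeing the data.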

Additional observations from a re-analysis of the deposited data

How the results depend on the processing

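Of 73 recomputed values, 62 stayed within 1.5 times the count, or within the interval of the share, that is given in the report. Counting peaks inside the genes only, the members had 29, 41, 35 and 42 peaks from 25000 to 100000 cells, and keeping only peaks at or above the median score of each list they had 28, 38, 36 and 36. With a window of 10 kb the numbers at 75000 and 100000 cells were 41 and 47. These settings take in less sequence or fewer peaks by construction. The share of regions found in all 4 libraries was 62.8% with peaks at or above the list median, beside 49.9% of all regions; the cause was not tested. Without 1 of the libraries, the share found in all the remaining ones lay between 53.9% and 56.8%, beside 52.5% to 54.0% of all regions. Fewer libraries then need a peak, which raises the share by construction. The number of members with a start peak in every library was 4 under each setting that used starts. With a window of 100 kb all 10 members had a region in all 4 libraries, since the window of Erg then reaches the regions below Ets2. No paired analysis was possible because each cell number has 1 library. A missing peak cannot be told from signal under the lowest listed score, and no interval for it can be given without read counts.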

Other observations

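Ehf and Spi1, ETS genes with no start in the promoter table, were looked at by their gene ends and were chosen after their values were seen. Ehf, an epithelial factor gene next to Elf5 on chromosome 2, had a peak near its upper end at chr2:103302051-103302600 with scores of 9, 17, 9 and 15, while Elf5 had no region inside the gene in any library. Spi1, which encodes the myeloid and B-cell factor PU.1, had a region at its upper end at chr2:91114901-91115650 with scores of 23, 18, 24 and 40. At its lower end Spi1 had a peak of 8 at 50000 cells only. Which end of Ehf or of Spi1 holds the start was not examined, so these peaks are not described as start peaks.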
